A study of Homo sapiens with 15 samples.

Results

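The RNA polymerase II transcription machinery was followed here as 52 genes that encode polymerase subunits, general transcription factors, kinases and cyclins of the polymerase tail, regulators of the elongation kinase P-TEFb, elongation factors and Mediator subunits. The rule lists the genes by name and uses no measured value, but the list was drawn up with earlier results of these data known. Of the 19775 genes with a probe set of their own, 49 were members, and all 49 passed the filter on low signals that left 16214 genes. The other members were GTF2H2 and NELFA, whose probe sets also carried other gene symbols, and NELFE, which no probe set in the annotation named, and they were not analysed here. Each gene was represented by 1 probe set.

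The cells were A549, an established human lung adenocarcinoma line with epithelial features, measured on 15 Affymetrix arrays in 5 groups of 3. One group received a match polyamide for 48 hours and dexamethasone for 6 hours, and another a mismatch polyamide for 48 hours and dexamethasone for 6 hours. A further group received mifepristone for 48 hours and dexamethasone for 6 hours, another dexamethasone alone for 6 hours, and the last was non-treated. Below, these are called match, mismatch, mifepristone, dexamethasone and non-treated arrays. Dexamethasone is a synthetic glucocorticoid, and mifepristone blocks its receptor. Polyamides are synthetic ligands that bind the minor groove of DNA, here with the match compound directed at the glucocorticoid response element (GRE). No label used here states a dose, and groups with a compound and no hormone were not analysed here. The labels do not say that replicate arrays came from separate cultures, so p-values speak for the spread among these arrays alone, and that spread may be technical.

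RNA polymerase II makes all messenger RNAs in the nucleus. General factors place it at a promoter, with TFIID binding the core promoter and TFIIH opening the DNA and phosphorylating the repeated tail of the largest polymerase subunit. Shortly downstream the enzyme pauses until P-TEFb, a kinase held inactive in a complex with 7SK RNA, releases it, and elongation factors and further tail kinases then carry it through the gene. Mediator joins DNA-bound activators, such as the glucocorticoid receptor, to this machinery.

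Values are quantile-normalized array signals, and differences are on the log2(signal + 16) scale, which understates the change of dim genes. The call was an adjusted p under 0.05 in a limma fit across 39744 probe sets. Probe sets bind their targets with unlike strength, so signals of different genes were not set against each other. FKBP5, a co-chaperone gene that glucocorticoids induce, checked the treatments, with a signal of 2733 ± 86.1 in dexamethasone arrays and 231 ± 19.3 in non-treated arrays (SD, n = 3 each). FKBP5 was lower than in dexamethasone arrays by a log2 difference of -2.27 in match, -0.84 in mismatch and -2.20 in mifepristone arrays. TSC22D3, the second check gene, had 1101 ± 46.1 in dexamethasone and 123 ± 8.48 in non-treated arrays. Its log2 differences from dexamethasone were -0.70 in match, -0.39 in mismatch and -2.46 in mifepristone arrays, all called. By TSC22D3, match arrays thus stayed well above mifepristone arrays (means 670 and 189). All 7 epithelial and A549 markers had probe sets, and their summed signal ran from 31025 to 36503 over the 15 arrays. Single markers moved with the polyamides within that sum, EPCAM by a log2 difference of 1.76 with match and 1.46 with mismatch, KRT19 by 0.69 and 0.59, MUC1 by -0.76 and 0.56, and KRT8 by -0.55 with match, all called. Smaller called falls were those of ALDH1A1 (-0.41 with match and -0.18 with mismatch), KRT18 (-0.17 and -0.12) and AKR1B10 (-0.16 with mismatch). The 4 leukocyte markers summed to 30.3 to 66.8 and 3 endothelial markers to 36.1 to 74.9. Fibroblast markers summed to 240.5 to 283 in match, 174 to 216 in mismatch and 116 to 153 in dexamethasone arrays, mostly from COL1A1 (230.4 ± 21.9, 153 ± 8.90 and 106 ± 9.37), and the part of this shift in the results was not tested. The ratio of 3′ to 5′ ACTB signal, a sign of RNA quality, ran from 1.32 to 1.99 in the 6 polyamide arrays, highest in mismatch replicate 2 and next in match replicate 2, and from 1.32 to 1.57 in the other 9 arrays. Without match replicate 2 the match polyamide raised 18 members and lowered 7, and without mismatch replicate 2 the mismatch polyamide raised 12 and lowered 6, against the full counts given below.

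Few members responded to dexamethasone alone, a share (6.12%) close to that of all genes. By the chosen probe sets 2 of the 49 rose (ELL2 and AFF1), 1 fell (HEXIM1) and 46 did not pass the test. The comparison called 6.85% of all genes, 3.23% higher and 3.61% lower. Among the 46, further probe sets of POLR2C (-0.29, adjusted p = 0.0066) and POLR2K (-0.36, adjusted p = 0.045) were called lower. The median member differed by -0.03, against -0.04 over all genes tested. ELL2, AFF1 and HEXIM1 act on P-TEFb or beside it, and the first pair belongs to the super elongation complex, in which AFF scaffolds join P-TEFb to ELL factors.

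ELL2, an elongation factor that keeps the polymerase moving, had signals of 631, 589 and 628 in dexamethasone arrays, against 373, 365 and 332 in non-treated arrays. The groups did not overlap, as for 9.1% of all genes on the higher and 15% on the lower side, and the log2 difference was 0.76 (SE 0.08, adjusted p = 1.4e-06). Of 3 further ELL2 probe sets, 2 were also called higher, at 0.68 (adjusted p = 0.00092) and 0.59 (adjusted p = 0.023). AFF1, a scaffold of the super elongation complex, had signals of 664, 718 and 725 in dexamethasone arrays and 479, 493 and 487 in non-treated arrays. Every dexamethasone array stood above every non-treated one, with a log2 difference of 0.52 (SE 0.08, adjusted p = 0.00028) that neither of 2 dim AFF1 probe sets passed and that missed the threshold on the signals as deposited (0.53, adjusted p = 0.12). HEXIM1, which binds 7SK RNA and inhibits P-TEFb, had signals of 1129, 1117 and 1133 in dexamethasone arrays, against 1628, 1680.4 and 1681 in non-treated arrays. All 3 dexamethasone arrays were lower, by a log2 difference of -0.56 (SE 0.06, adjusted p = 7.1e-07), which was -0.53 with an adjusted p of 0.057 on the signals as deposited. A second HEXIM1 probe set stood at -0.29 (adjusted p = 0.18), and the 3 calls held in every fit that left out 1 array. AFF4, the partner scaffold, and ELL, the paralogue of ELL2, had log2 differences of 0.16 (adjusted p = 0.61) and 0.21 (adjusted p = 0.78), with ELL close to the added 16 in signal on most arrays.

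Mifepristone with dexamethasone moved the same 3 genes, each opposite to its dexamethasone change. It called 6.12% of members and a like share of all genes (5.33%, 2.55% higher and 2.78% lower). HEXIM1 rose, ELL2 and AFF1 fell, and 46 members did not pass the test, with a median of 0.01 against 0.02 over all genes. Both comparisons share the dexamethasone arrays, so a high or low signal there moves both. ELL2 signals were 451, 423 and 394 in mifepristone arrays, against the dexamethasone values above, a log2 difference of -0.53 (SE 0.08, adjusted p = 0.00024). HEXIM1 signals were 1482, 1495 and 1387 in mifepristone arrays, higher by 0.36 (SE 0.06, adjusted p = 0.00026). AFF1 signals were 549.6, 554 and 543, and the log2 difference was -0.35 (SE 0.08, adjusted p = 0.017). No mifepristone array overlapped the dexamethasone arrays for any of these genes, where arrays did not overlap for 11.4% of all genes on the higher and 9.41% on the lower side, and all 3 genes lay between the dexamethasone and the non-treated arrays. These counts depend on array scaling, and the mifepristone arrays were the brightest as deposited, with trimmed means of 119 to 146 against 91.4 to 107 in dexamethasone arrays. On the signals as deposited 20 members were higher and 0 lower, where 19.9% of all probe sets tested were higher and 0.584% lower. With scaling on hybridization controls the counts were 32 and 0, against 31.7% and 0.559% of probe sets. The median over all genes was 0.38 and 0.44. Under those scalings ELL2 stood at -0.08 and -0.01 and AFF1 turned to 0.10 and 0.17, which is below the all-gene median in each case. The AFF1 call was lost without dexamethasone replicate 2 or 3 or any mifepristone array, at -0.35 to -0.32. With the mean over probe sets none of the 3 genes passed, at 0.27 for HEXIM1, -0.32 for ELL2 and -0.19 for AFF1, while 1 other member was called higher.

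In a comparison added after the data were seen, mifepristone arrays were set against non-treated arrays, where 0.247% of genes were called. None of the 3 genes passed, with log2 differences of 0.24 for ELL2 (95% interval 0.07 to 0.40), 0.17 for AFF1 (0.00 to 0.34) and -0.19 for HEXIM1 (-0.31 to -0.08), adjusted p = 0.53, 0.75 and 0.35. The polyamide arrays, in which 37.7% of genes with match and 28% with mismatch were called against non-treated arrays, held another pattern by the chosen probe sets. ELL2 stayed above non-treated arrays by 0.83 with match (adjusted p = 8.1e-08) and 0.94 with mismatch (adjusted p = 2.6e-08), and HEXIM1 stayed below them by a log2 difference of -0.42 (adjusted p = 5.5e-06) and -0.84 (adjusted p = 6.9e-10). AFF1 was below non-treated arrays with match (-0.33, adjusted p = 0.0041) and at 0.06 with mismatch (95% interval -0.12 to 0.23, adjusted p = 0.72).

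**Figure D1:**
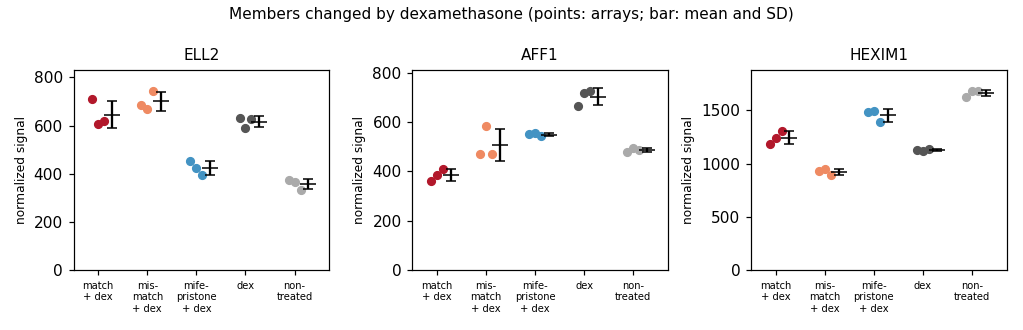
Quantile-normalized signal (linear axis from 0) of ELL2, AFF1 and HEXIM1 in the 5 groups, with 1 point per array and a bar for the mean and SD of 3 arrays. By the chosen probe sets, ELL2 is high in match, mismatch and dexamethasone arrays, AFF1 is highest in dexamethasone arrays, and HEXIM1 is highest in non-treated arrays and lowest in mismatch arrays.

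Among the promoters of the members, those of AFF1 and HEXIM1 are printed because both genes changed with the hormone, and those of CDK7 and TAF4 because they carry the largest polyamide differences described below. Each run covers the 250 bases before a start that the RefSeq promoter table gives (GRCh38.p14), 5′ to 3′ on the gene's strand, and capitals mark matches to any of 4 motifs on either strand. The GC box was searched as GGGCGG and its reverse complement. The CCAAT box was searched by the letters of its name, the TATA box by the letters TATAAA, and the half-site of the GRE by the letters AGAACA, with their reverse complements. AFF1 lies at chr4:86934761-86935010 (plus strand), HEXIM1 at chr17:45148225-45148474 (plus strand), CDK7 at chr5:69234636-69234885 (plus strand) and TAF4 at chr20:62065882-62066131 (minus strand). For CDK7 the table gives more than 1 start, and the window of the first listed, shown here, reaches past the other start into the RefSeq span of the gene.
AFF1: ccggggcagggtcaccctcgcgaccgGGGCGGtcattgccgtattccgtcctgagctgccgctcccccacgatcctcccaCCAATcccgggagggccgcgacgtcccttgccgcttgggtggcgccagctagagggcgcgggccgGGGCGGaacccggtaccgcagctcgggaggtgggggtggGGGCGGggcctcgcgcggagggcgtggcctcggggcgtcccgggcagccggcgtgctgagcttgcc
HEXIM1: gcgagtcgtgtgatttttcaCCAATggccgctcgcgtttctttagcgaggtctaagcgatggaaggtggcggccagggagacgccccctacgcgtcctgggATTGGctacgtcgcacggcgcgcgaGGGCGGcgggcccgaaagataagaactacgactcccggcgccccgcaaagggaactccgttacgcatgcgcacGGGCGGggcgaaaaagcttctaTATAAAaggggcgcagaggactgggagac
CDK7: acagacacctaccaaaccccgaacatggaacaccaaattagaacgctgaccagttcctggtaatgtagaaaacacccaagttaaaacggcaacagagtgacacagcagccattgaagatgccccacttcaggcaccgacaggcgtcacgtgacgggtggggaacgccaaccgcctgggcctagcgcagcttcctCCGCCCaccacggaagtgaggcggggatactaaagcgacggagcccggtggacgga
TAF4: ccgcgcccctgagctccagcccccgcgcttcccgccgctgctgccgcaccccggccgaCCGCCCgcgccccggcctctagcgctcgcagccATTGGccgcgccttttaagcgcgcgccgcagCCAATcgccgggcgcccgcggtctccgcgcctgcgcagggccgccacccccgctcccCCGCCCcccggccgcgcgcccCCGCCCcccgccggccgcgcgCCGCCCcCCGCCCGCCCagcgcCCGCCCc
The AFF1 window held 3 GC boxes and 1 CCAAT box. In HEXIM1 there were 2 GC boxes, 2 CCAAT boxes and 1 TATA box close to the start, in CDK7 1 GC box, and in TAF4 7 GC boxes, some overlapping, and 2 CCAAT boxes. None of these 4 windows held the letters of the GRE half-site. Of the 52 members 46 had a promoter in the table, ELL2 not among them, and 2 of the 46 held a GRE half-site (4.35%, against 12.4% of 35116 promoters). The shares were 71.7% against 42.6% for the GC box, 28.3% against 32% for CCAAT and 4.35% against 10.7% for the TATA box. A match of letters is a description and not a binding site.

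Both polyamides changed many more members. With the match polyamide 22 members rose, 7 fell and 20 did not pass the test, where 39.1% of all genes were called, 21.6% higher and 17.6% lower. The median member differed by 0.20, against 0.05 over all genes. With the mismatch polyamide 15 rose, 5 fell and 29 did not pass, where 29.9% of all genes were called, 18% higher and 11.9% lower, and the median was 0.16 against 0.07. Arrays did not overlap for 24 higher and 8 lower members with match (26% and 21.2% of all genes) and for 19 and 8 with mismatch (26.3% and 16.9%). Counts and split depend on scaling. With match 9 members rose and 2 fell on the signals as deposited, and 23 rose and 2 fell with scaling on hybridization controls. With mismatch these counts were 14 and 1 as deposited and 4 and 1 with hybridization controls. Of all probe sets tested, 10.7% rose and 9.33% fell with match as deposited, and 20.7% and 6.71% with hybridization controls. With mismatch the shares were 11.3% and 4.44% as deposited, and 6.66% and 4.98% with hybridization controls. Both comparisons share the dexamethasone arrays.

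Set against each other at the same times, with doses not given, the polyamides were 1 pair of compounds to compare. The match polyamide was higher than the mismatch polyamide for 10 members and lower for 5, with 34 not past the test, where 23% of all genes were called, 9.45% higher and 13.6% lower. The median member differed by 0.04, against -0.02 over all genes. Arrays did not overlap for 14 higher and 5 lower members (16.1% and 20.6% of all genes). Here too scaling moved the split, to 2 higher and 4 lower on the signals as deposited (1.4% and 6.39% of all probe sets tested). With hybridization controls it was 6 higher and 0 lower (5.37% and 1.79%). CDK7 and TAF4 were the 2 members called higher on the signals as deposited as well.

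**Figure D2:**
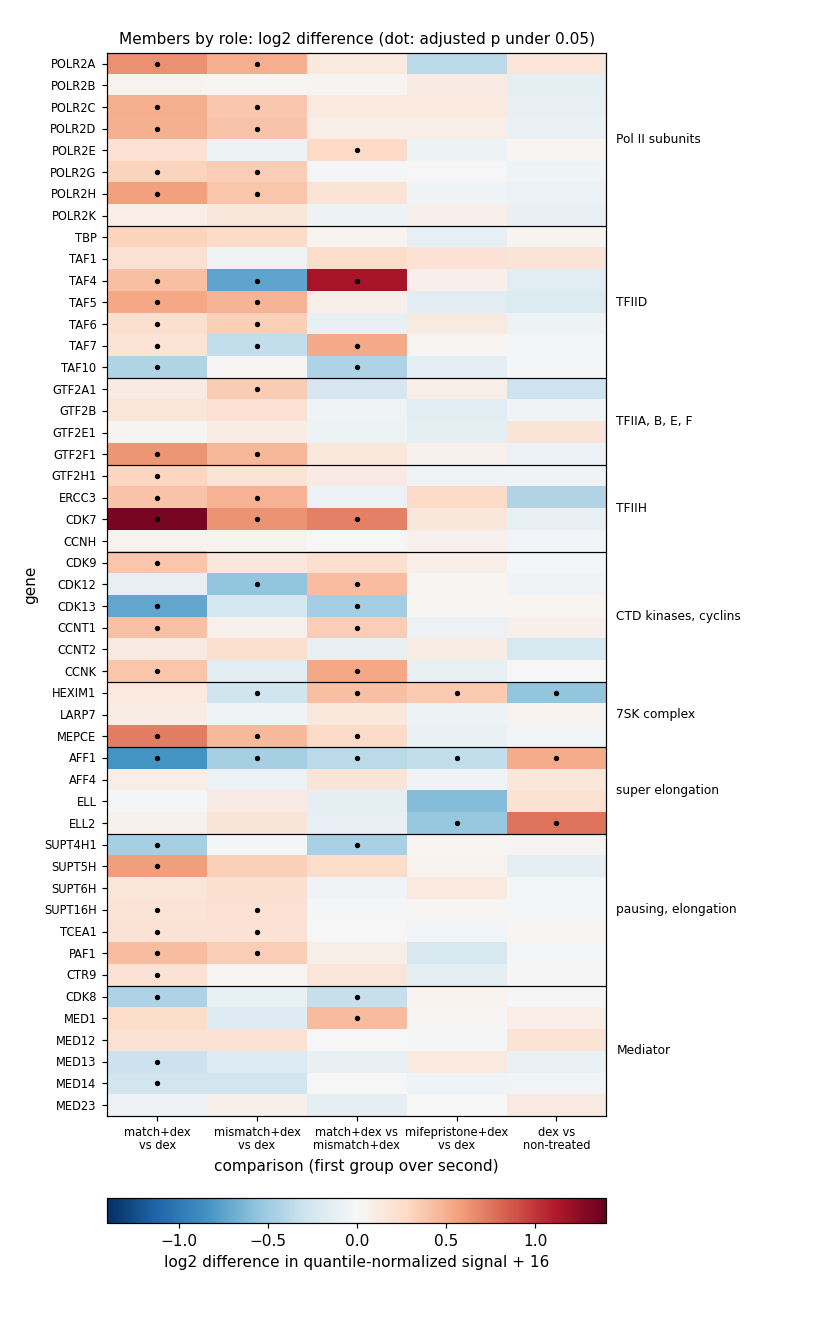
Log2 difference (colour, first group over second) of the 49 members, in rows by role, in the 5 comparisons, with a dot where the adjusted p is under 0.05. The polyamide columns carry most dots, and the mifepristone and dexamethasone columns carry 3 each, on HEXIM1, AFF1 and ELL2.

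Of the 8 polymerase subunits among the members, 5 rose and 0 fell with match (21.6% and 17.6% of all genes) and likewise with mismatch (18% and 11.9%). The same 5 were called, POLR2A, POLR2C, POLR2D, POLR2G and POLR2H. With match the count was 4 to 6 higher and 0 lower under the other array scalings, and with mismatch 1 to 5 higher and 0 lower. POLR2A, the catalytic subunit with the repeated tail, had signals of 166, 204 and 284 in match and 205, 236 and 147 in mismatch arrays, against 121, 129 and 144 in dexamethasone arrays. Each polyamide array was higher than each dexamethasone array, by 0.64 (SE 0.17, adjusted p = 0.0047) with match and 0.51 (SE 0.17, adjusted p = 0.031) with mismatch. The polyamide arrays spread widely, and 2 further, dim POLR2A probe sets did not pass. The mean over all 3 was 0.17 (adjusted p = 0.48) with match and 0.05 (adjusted p = 0.87) with mismatch. POLR2H, a subunit shared by all nuclear RNA polymerases, had 693, 742 and 802 in match and 637, 687 and 630.4 in mismatch arrays, against 479.5, 504 and 495 in dexamethasone arrays. Its log2 differences were 0.58 (SE 0.07, adjusted p = 1.7e-06) and 0.39 (SE 0.07, adjusted p = 0.00033).

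POLR2C, part of the assembly platform of the enzyme, measured 901, 723 and 779 with match, 729, 657 and 789.9 with mismatch and 500.1, 547 and 620.5 in dexamethasone arrays, for log2 differences of 0.51 and 0.38. POLR2D and POLR2G form the stalk that guides nascent RNA. POLR2D measured 394, 394 and 422 with match, 383, 385 and 361 with mismatch and 284, 284 and 276 in dexamethasone arrays, and POLR2G measured 1715, 1755 and 1884, 1869.9, 1826 and 1778 and 1330.5, 1447 and 1529. Groups did not overlap for either, and POLR2G rose by 0.31 and 0.34. Among these 5 subunits the difference between the polyamides was at most 0.19 (95% interval 0.04 to 0.34), the value of POLR2H, and 0.13 (95% interval -0.21 to 0.48) for POLR2A. POLR2E, another shared subunit, was the exception, higher with match than with mismatch by 0.28 (SE 0.08, adjusted p = 0.017), with 966, 971 and 1059 against 854, 769.6 and 842. POLR2B, the second largest subunit, stood at 0.05 and 0.02, and POLR2K, a small zinc-binding subunit, at 0.09 and 0.16, none past the test by the chosen probe set, while a second POLR2B probe set rose with mismatch by 0.32 (adjusted p = 0.0027). Of the other subunits on the wider list, POLR2F was at 0.18 (adjusted p = 0.21) with match and 0.30 (adjusted p = 0.041) with mismatch, and POLR2I and POLR2J were not called with either compound. POLR2L was lower with match, at 3833, 3900.1 and 4205 against 5309, 5386 and 5309 in dexamethasone arrays, a log2 difference of -0.42 (adjusted p = 1.1e-06), and at -0.06 (adjusted p = 0.47) with mismatch. The POLR2E call was lost as deposited (0.09, adjusted p = 0.82) and with hybridization controls (0.40, adjusted p = 0.15). Leaving out 1 array ended the mismatch calls of POLR2A (dexamethasone replicate 1 or 2, mismatch replicate 1 or 2, at 0.37 to 0.50) and POLR2C (dexamethasone replicate 1, mismatch replicate 3, at 0.30 and 0.31) and the POLR2E call (match replicate 3, mismatch replicate 2, at 0.23), and without match replicate 1 POLR2H passed between the polyamides (0.24).

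TFIID subunits did not move as a unit. With match 4 of 7 rose (TAF4, TAF5, TAF6 and TAF7) and TAF10 fell, where 21.6% of all genes rose and 17.6% fell. With mismatch TAF5 and TAF6 rose and TAF4 and TAF7 fell, where 18% of all genes rose and 11.9% fell. As deposited the counts were 1 higher and 0 lower with match and 2 and 1 with mismatch, and with hybridization controls 4 and 0, and 0 and 1. The falls of TAF10 with match (-0.39 and -0.17) and of TAF7 with mismatch (-0.14 and -0.23) were not called under either scaling. TAF4, a scaffold and coactivator subunit, had signals of 338, 334 and 387 in match arrays and 134, 177 and 142 in mismatch arrays. It measured 287, 294 and 239.9 in mifepristone, 259, 232 and 291 in dexamethasone and 283, 308 and 275 in non-treated arrays. All match arrays were above and all mismatch arrays below each of these 9, with log2 differences from dexamethasone of 0.42 (SE 0.11, adjusted p = 0.0064) and -0.73 (SE 0.11, adjusted p = 5.5e-05). Between the polyamides TAF4 differed by 1.15 (SE 0.11, adjusted p = 4.8e-07), past 2-fold and past the threshold under every alternative tried, while on the signals as deposited the match call against dexamethasone was at 0.45 (adjusted p = 0.091).

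TAF7, which restrains the TAF1 subunit until initiation, followed the same order with smaller steps. It measured 1086, 984 and 990.0 in match, 702, 727 and 670.4 in mismatch and 907, 876 and 884 in dexamethasone arrays, at 0.19 (SE 0.06, adjusted p = 0.022) and -0.34 (SE 0.06, adjusted p = 0.00038). The difference between the polyamides was 0.53 (SE 0.06, adjusted p = 4.9e-06). TAF10, which TFIID shares with the coactivator SAGA, went the other way, with 812, 888 and 1009 in match, 1197, 1295 and 1176 in mismatch and 1224, 1139 and 1262 in dexamethasone arrays. Match arrays alone were low, at -0.42 (SE 0.07, adjusted p = 0.00016) against dexamethasone and -0.44 against mismatch arrays, while its 2 further, dim probe sets were not called and the mean over all 3 was -0.06 with match and -0.11 between the polyamides. TAF5, a WD40-repeat scaffold, rose to 219.6, 155 and 169.6 with match and 173, 179 and 159.7 with mismatch, against 110.1, 124 and 120.4 in dexamethasone arrays. These are log2 differences of 0.54 and 0.48, seconded by a further probe set. TAF6, a histone-fold subunit, rose by 0.22 and 0.33. The match calls were lost for TAF6 without dexamethasone replicate 1 or 2 or match replicate 2 or 3 (0.18 to 0.23), and for TAF7 without dexamethasone replicate 2 or 3 or match replicate 1 (0.15 to 0.19).

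TBP, the TATA-binding protein, measured 208, 184 and 224 in match, 212, 204 and 183 in mismatch and 143, 139 and 215 in dexamethasone arrays. Dexamethasone replicate 3 was far above the other two, the groups overlapped, and the differences were 0.31 (adjusted p = 0.11) and 0.27 (adjusted p = 0.19). Without that array they were 0.50 (adjusted p = 0.006) and 0.46 (adjusted p = 0.014). TAF1, the largest subunit, stood at 0.21 (adjusted p = 0.32) and -0.04 (adjusted p = 0.88).

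Of the general factors TFIIA, TFIIB, TFIIE and TFIIF, GTF2F1 rose with both compounds and GTF2A1 with mismatch. GTF2F1, the large subunit of TFIIF, which escorts the polymerase to the promoter, had 421, 338 and 360.2 with match, 301, 341 and 357 with mismatch and 241, 261 and 210.0 in dexamethasone arrays. It stood at 0.62 (SE 0.11, adjusted p = 0.00017) and 0.47 (SE 0.11, adjusted p = 0.0037), and the polyamides differed by 0.15 (95% interval -0.08 to 0.38). GTF2A1, which encodes the precursor of the larger TFIIA subunits, was at 0.12 (adjusted p = 0.53) with match and 0.35 (adjusted p = 0.041) with mismatch, a call lost without any 1 mismatch array or dexamethasone replicate 1 or 2 (0.25 to 0.38). GTF2B, which positions the polymerase at the start site, was at 0.17 (adjusted p = 0.21) and 0.22 (adjusted p = 0.11), and GTF2E1, which recruits TFIIH, at 0.04 (adjusted p = 0.84) and 0.10 (adjusted p = 0.55).

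CDK7, the kinase of TFIIH that phosphorylates the polymerase tail and activates other cyclin-dependent kinases, showed the largest rise of any member. Its signals were 979, 1051 and 1011 in match arrays and 691, 611 and 557 in mismatch arrays. They were 437, 438 and 445 in mifepristone, 371, 428 and 383 in dexamethasone and 394, 407 and 472 in non-treated arrays. Match arrays stood highest, mismatch arrays next, and no array of either overlapped the other 9. The log2 differences from dexamethasone were 1.33 (SE 0.09, adjusted p = 2.1e-10) with match and 0.63 (SE 0.09, adjusted p = 1.5e-05) with mismatch, and match exceeded mismatch by 0.70 (SE 0.09, adjusted p = 8.4e-06). All 3 calls held under every alternative tried, and with match CDK7 alone of the members passed 2-fold.

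The partners of CDK7 did not follow it. Cyclin H, encoded by CCNH, measured 757, 668 and 667 in match, 739, 723 and 631 in mismatch and 679, 669.9 and 669.9 in dexamethasone arrays. Its differences were 0.05 (adjusted p = 0.69) and 0.05 (adjusted p = 0.73). MNAT1, the assembly factor that completes the trimer and a gene of the wider machinery list, measured 56.5, 76.6 and 55.7 with match, 103, 105 and 109.6 with mismatch and 172, 169 and 163 in dexamethasone arrays. MNAT1 was thus lowest with match and intermediate with mismatch, at -1.23 (SE 0.11, adjusted p = 4.2e-08) and -0.59 (SE 0.11, adjusted p = 0.0006), and match was below mismatch by -0.64 (SE 0.11, adjusted p = 0.00049). ERCC3, the TFIIH translocase that opens promoter DNA, measured 135, 231 and 190.3 with match, 211, 202 and 171 with mismatch and 142, 131 and 129 in dexamethasone arrays. It stood at 0.40 (adjusted p = 0.033) with match, where the first array overlapped the dexamethasone arrays, and at 0.48 (adjusted p = 0.014) with mismatch. GTF2H1, a core subunit, rose by 0.30 with match, where a dimmer GTF2H1 probe set fell to -0.60, and stood at 0.19 (adjusted p = 0.16) with mismatch. The match calls were lost for ERCC3 without dexamethasone replicate 2 or 3 or match replicate 2 or 3 (0.24 to 0.38) and for GTF2H1 without dexamethasone replicate 1 (0.28) or with the mean over its probe sets (0.00), and the mismatch call of ERCC3 without mismatch replicate 1 (0.43). On the signals as deposited CDK7 was the only TFIIH member called with match, so the ERCC3 and GTF2H1 calls were lost there too.

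**Figure D3:**
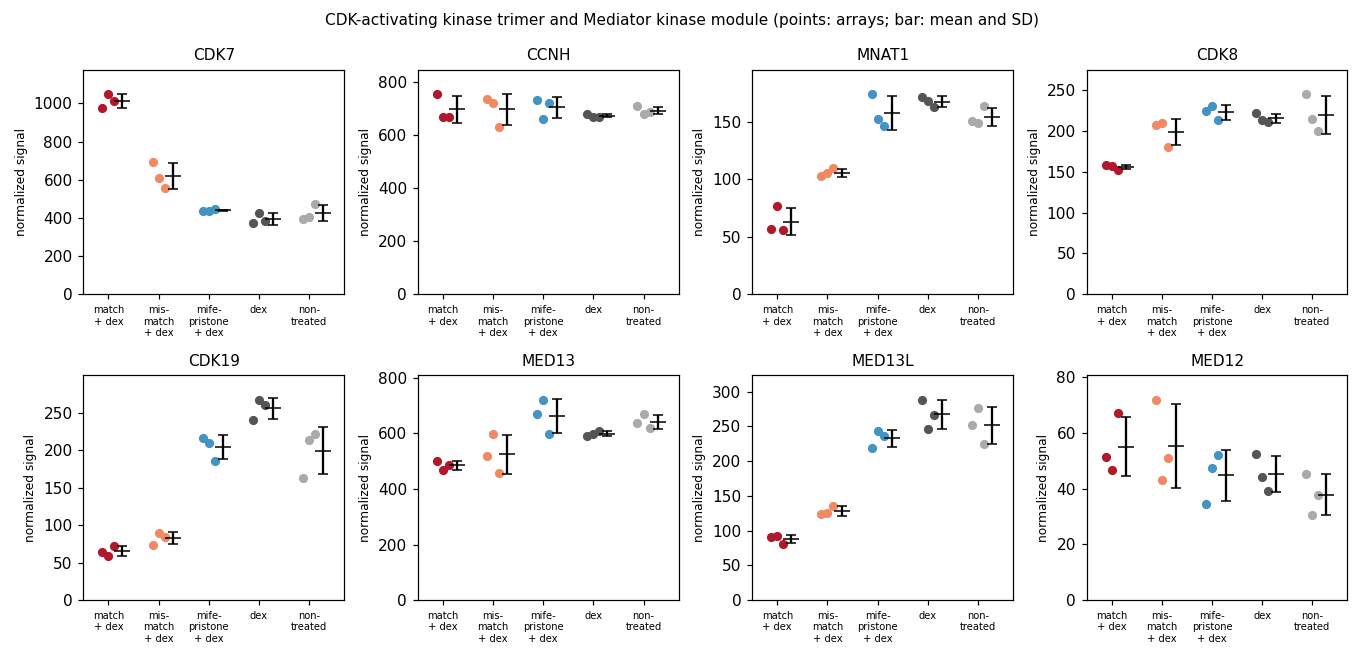
Quantile-normalized signal (linear axis from 0, 1 point per array, bar for mean and SD of 3 arrays) of the CDK7, CCNH and MNAT1 trimer and of the Mediator kinase module genes CDK8, CDK19, MED13, MED13L and MED12. In match arrays CDK7 is high, CCNH level with the rest, and MNAT1, CDK19 and MED13L low.

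Of the 6 kinases of the polymerase tail and their cyclins, 3 were higher and 1 lower with match than with mismatch (9.45% and 13.6% of all genes). These counts were 0 and 1 as deposited and 2 and 0 with hybridization controls. With match against dexamethasone 3 rose and 1 fell (21.6% and 17.6% of all genes). That became 0 and 1 as deposited and 3 and 1 with hybridization controls. The match rises of CDK9, CCNT1 and CCNK given below were thus not called as deposited. P-TEFb consists of CDK9 with a T-type cyclin. CDK9 measured 186, 179 and 195 with match, 172, 125 and 178 with mismatch and 136, 138 and 141 in dexamethasone arrays, at 0.39 (SE 0.15, adjusted p = 0.048) with match, a call lost in every leave-one-out fit, and 0.16 (adjusted p = 0.5) with mismatch. CCNT1, its main cyclin, measured 712, 667 and 689 with match, 523, 539 and 560.0 with mismatch and 498, 494 and 559.9 in dexamethasone arrays. Match arrays alone were high, at 0.41 (SE 0.07, adjusted p = 9.3e-05), and above mismatch arrays by 0.34 (SE 0.07, adjusted p = 0.0014), while its dim second probe set was not called and the mean over both was 0.11 (adjusted p = 0.71) with match and 0.09 (adjusted p = 0.79) between the polyamides. The difference between the polyamides was also not called as deposited (0.19) or with hybridization controls (0.50). CCNT2, the alternative cyclin, measured 173, 175 and 162 with match, 169, 181 and 199.8 with mismatch and 159.9, 171 and 136 in dexamethasone arrays, which overlapped. It stood at 0.12 (adjusted p = 0.47) and 0.22 (adjusted p = 0.18), while dimmer CCNT2 probe sets were called, 1 with match (0.42, adjusted p = 0.022) and 1 with mismatch (0.40, adjusted p = 0.02).

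CDK12 and CDK13 are paralogous kinases that pair with cyclin K and act during elongation, and they moved in opposite order. CDK12 measured 251, 240.1 and 234 with match, 172, 176 and 176 with mismatch and 264, 258 and 269 in dexamethasone arrays. Mismatch arrays were low and tightly grouped, at -0.55 (SE 0.08, adjusted p = 1.9e-05), while match stood at -0.12 (adjusted p = 0.29). The mismatch call was lost as deposited (-0.39, adjusted p = 0.14) and with hybridization controls (-0.48, adjusted p = 0.079). CDK13 measured 157, 129.8 and 99.6 with match, 173, 180.3 and 195 with mismatch and 227, 232 and 201 in dexamethasone arrays. Here match arrays were low, at -0.72 (SE 0.12, adjusted p = 8.3e-05), and mismatch arrays stood at -0.25 (adjusted p = 0.16). The difference between the polyamides was 0.44 (SE 0.08, adjusted p = 0.00042) for CDK12, with 4 further probe sets called in the same direction, and -0.48 (SE 0.12, adjusted p = 0.009) for CDK13. Without match replicate 3 the CDK13 difference was -0.32 (adjusted p = 0.062), and another CDK13 probe set rose with match by 0.35, against -0.36 for one more.

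CCNK, the cyclin of both kinases, measured 615, 636 and 699 with match, 478, 446 and 404 with mismatch and 472, 483 and 518 in dexamethasone arrays. It rose with match by 0.39 (SE 0.09, adjusted p = 0.0027) and stood at -0.15 (adjusted p = 0.3) with mismatch. Match exceeded mismatch by 0.54 (SE 0.09, adjusted p = 0.00036).

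**Figure D4:**
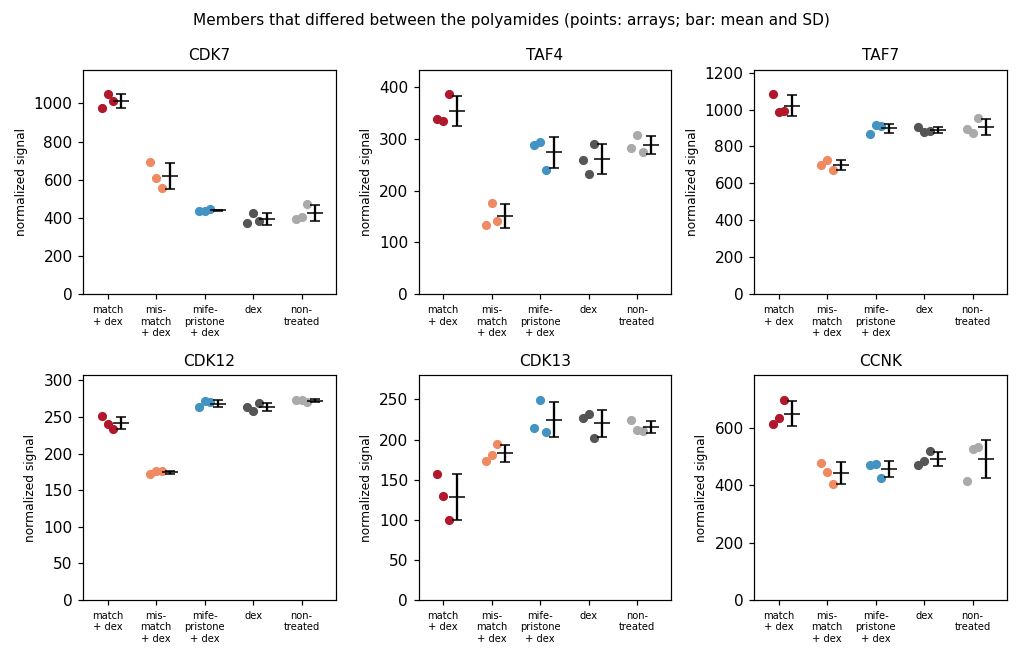
Quantile-normalized signal (linear axis from 0, 1 point per array, bar for mean and SD of 3 arrays) of 6 members called between match and mismatch arrays. CDK7, TAF4, TAF7, CDK12 and CCNK are higher in match than in mismatch arrays, and CDK13 is lower.

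Of the genes that hold P-TEFb in the 7SK complex, MEPCE rose with both compounds. MEPCE, the enzyme that caps 7SK RNA, measured 625, 686 and 715 with match, 578, 574 and 521 with mismatch and 422, 399 and 389.9 in dexamethasone arrays. These are log2 differences of 0.72 (SE 0.09, adjusted p = 2.6e-06) and 0.45 (SE 0.09, adjusted p = 0.00087), and 0.27 (SE 0.09, adjusted p = 0.048) between the polyamides. HEXIM1 measured 1179.7, 1242 and 1303 with match and 928, 952 and 896 with mismatch, on either side of the dexamethasone arrays. It stood at 0.14 (adjusted p = 0.067) with match, fell with mismatch at -0.28 (SE 0.06, adjusted p = 0.0008), and match exceeded mismatch by 0.42 (SE 0.06, adjusted p = 2.1e-05). The other HEXIM1 probe set gave -0.37, -0.85 and 0.48, so its sign with match differed. The fall of HEXIM1 with mismatch was lost as deposited (-0.08, adjusted p = 0.78) and with hybridization controls (-0.18, adjusted p = 0.56), as was the MEPCE difference between the polyamides (0.11 and 0.42). The MEPCE call between the polyamides was lost without match replicate 2 or 3 or any 1 mismatch array (0.22 to 0.29), and HEXIM1 passed with match at 0.17 (adjusted p = 0.034) without match replicate 1. LARP7, which binds the end of 7SK RNA, was at 0.10 (adjusted p = 0.49) and -0.04 (adjusted p = 0.82).

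Of the 4 super elongation complex members AFF1 fell and the others did not pass by their chosen probe sets. It measured 359.6, 386 and 410.4 with match and 472, 583 and 470.0 with mismatch, all below the dexamethasone arrays, at -0.84 (SE 0.08, adjusted p = 7.7e-08) and -0.46 (SE 0.08, adjusted p = 0.00027). Match was below mismatch by -0.38 (SE 0.08, adjusted p = 0.0024). These values rest on 1 probe set, since the 2 further AFF1 probe sets were dim and not called, and the mean over all 3 was -0.24 (adjusted p = 0.12), -0.15 (adjusted p = 0.4) and -0.09 (adjusted p = 0.68). With mismatch the AFF1 fall was not called as deposited (-0.26) or with hybridization controls (-0.36). MLLT3, a gene of this complex on the wider list that was picked out after its values were seen, measured 34.7, 33.1 and 39.3 with match, 41.3, 39.1 and 69.8 with mismatch and 125, 112 and 115 in dexamethasone arrays, at -1.37 (adjusted p = 2.2e-07) and -1.04 (adjusted p = 1.6e-05). Related genes of the wider list, EAF1, EAF2 and MLLT1, did not show this fall with match. EAF1 and EAF2 had means of 291 and 88.6 with match and 294 and 88.5 with mismatch, against 210 and 57.4 in dexamethasone arrays. MLLT1 had means of 269 with match, 211 with mismatch and 251 in dexamethasone arrays. AFF4 measured 581, 648 and 519.5 with match, 452, 551 and 533 with mismatch and 614, 551 and 469 in dexamethasone arrays, at 0.10 (adjusted p = 0.6) and -0.08 (adjusted p = 0.7). A dimmer AFF4 probe set was called higher with match, at 0.63 (adjusted p = 0.014), and stood at 0.32 (adjusted p = 0.27) with mismatch. ELL measured 24.6, 38.1 and 24.2 with match, 34.3, 42.7 and 23.9 with mismatch and 26.2, 33.2 and 28.3 in dexamethasone arrays, at -0.02 and 0.12, with an SE of 0.24, so changes of this size were not detectable. ELL2 measured 711, 606 and 619.9 with match and 687, 669.9 and 743 with mismatch, at 0.06 (adjusted p = 0.62) and 0.18 (adjusted p = 0.12), and the polyamides differed by -0.12 (95% interval -0.28 to 0.05). A further ELL2 probe set fell, by a log2 difference of -0.75 (adjusted p = 5.0e-05) with match and -0.36 (adjusted p = 0.037) with mismatch, so the probe sets disagree on ELL2 under the polyamides, and its level above non-treated arrays rests on the chosen one.

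Of 7 factors of pausing and elongation 5 rose and 1 fell with match (21.6% and 17.6% of all genes), and 3 rose with mismatch (18% of all genes). As deposited the counts were 1 and 0 with match and 2 and 0 with mismatch, and with hybridization controls 4 and 0, and 0 and 0. SUPT5H and SUPT4H1 encode the pair of proteins that form DSIF, the clamp factor of pausing and elongation, and with match they moved apart. SUPT5H measured 314, 414 and 436 with match, 379.7, 316 and 272 with mismatch and 248, 233 and 275 in dexamethasone arrays. Match arrays were all above dexamethasone arrays, at 0.58 (SE 0.15, adjusted p = 0.0051), and mismatch arrays overlapped them, at 0.33 (adjusted p = 0.14). SUPT4H1 measured 665, 632 and 488 with match, 802, 800.2 and 834 with mismatch and 814, 785 and 862 in dexamethasone arrays. It was low in match arrays alone, at -0.46 (SE 0.09, adjusted p = 0.00026) against dexamethasone, -0.45 (SE 0.09, adjusted p = 0.00091) against mismatch arrays and -0.01 with mismatch. The SUPT4H1 fall against dexamethasone was lost as deposited (-0.42, adjusted p = 0.066) and with hybridization controls (-0.20, adjusted p = 0.4). PAF1, of the complex that couples elongation to histone marks, measured 345, 427 and 429.8 with match, 421, 385 and 323 with mismatch and 275, 272 and 331 in dexamethasone arrays, at 0.43 and 0.34.

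CTR9, the scaffold of the PAF complex, rose by 0.20 with match and stood at 0.03 (adjusted p = 0.86) with mismatch. SUPT16H, a subunit of the histone chaperone FACT whose mean over probe sets was 0.10 and -0.15 and which was not called as deposited or with hybridization controls, rose by 0.19 and 0.21. TCEA1, which rescues backtracked polymerase, rose by 0.20 and 0.20. SUPT6H, a histone chaperone that travels with the polymerase, was at 0.17 (adjusted p = 0.26) and 0.23 (adjusted p = 0.15). For these 4 genes no difference between the polyamides passed the test, with -0.01 (95% interval -0.13 to 0.12) for TCEA1 and -0.03 (95% interval -0.15 to 0.10) for SUPT16H. Leaving out 1 array ended each of these small rises, with match for CTR9 (dexamethasone replicate 1 or any match array, 0.13 to 0.22), SUPT16H (dexamethasone replicate 1, match replicate 1 or 3, 0.16 to 0.18) and TCEA1 (dexamethasone replicate 3, match replicate 1, 0.11 and 0.16). With mismatch it ended those of SUPT16H (mismatch replicate 3, 0.19), TCEA1 (dexamethasone replicate 3, mismatch replicate 1 or 3, 0.17 to 0.19) and PAF1 (dexamethasone replicate 1 or 2, mismatch replicate 1 or 2, 0.26 to 0.33).

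Of the 6 Mediator genes among the members none rose with either compound by its chosen probe set (21.6% of all genes with match and 18% with mismatch). With match 3 fell (17.6% of all genes). CDK8, the kinase of the Mediator kinase module, measured 158, 157 and 153 with match, 207, 209 and 181 with mismatch and 221, 213 and 211 in dexamethasone arrays. Match arrays formed a narrow low group, at -0.43 (SE 0.09, adjusted p = 0.0012), and mismatch stood at -0.11 (adjusted p = 0.48). The polyamides differed by -0.32 (SE 0.09, adjusted p = 0.022), a call lost without match replicate 3 or without either of mismatch replicates 1 and 2, at -0.31 to -0.29. MED13, which links that module to core Mediator, measured 499.6, 469 and 485 with match, 519, 598 and 457 with mismatch and 592, 599.8 and 608 in dexamethasone arrays, at -0.30 (SE 0.09, adjusted p = 0.011) and -0.20 (adjusted p = 0.12). Its probe sets disagree. A dimmer one rose by 0.52 with match and by 0.78 (adjusted p = 0.00087) with mismatch, while another fell to -0.41 and -0.37 (adjusted p = 0.028). By its chosen probe set MED13 passed with mismatch at -0.29 (adjusted p = 0.021) without mismatch replicate 2.

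MED14, the backbone of the complex, measured 274, 281 and 239 with match, 284, 228 and 286 with mismatch and 341, 308 and 312 in dexamethasone arrays. It stood at -0.26 (adjusted p = 0.046) and -0.26 (adjusted p = 0.062), and the match call was lost without any 1 dexamethasone array or match replicate 1 or 3 (-0.29 to -0.19), and without mismatch replicate 3 mismatch passed (-0.31). MED1, the subunit that nuclear receptors bind, measured 1031, 751 and 753 with match, 605, 572 and 660.4 with mismatch and 773, 723 and 599 in dexamethasone arrays. It overlapped dexamethasone arrays with both, at 0.26 (adjusted p = 0.13) and -0.18 (adjusted p = 0.36), and was higher with match than with mismatch by 0.44 (SE 0.13, adjusted p = 0.018), which was not past the test without match replicate 1 (0.29) or mismatch replicate 1 or 2 (0.43 and 0.39). A second MED1 probe set rose with match by 0.38 (adjusted p = 0.0013). MED12, the activator of CDK8, was at 0.21 (adjusted p = 0.43) and 0.20 (adjusted p = 0.49), and MED23, a tail subunit, at -0.07 (adjusted p = 0.73) and 0.07 (adjusted p = 0.74). None of the 6 Mediator genes fell with match on the signals as deposited or with hybridization controls, and with the second of these scalings MED1 rose. The CDK8 and MED1 differences between the polyamides were not called under either scaling, at -0.47 and 0.29 as deposited and -0.18 and 0.60 with hybridization controls.

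The wider machinery, 84 further tested genes of 90 listed, held 27 higher and 14 lower with match, 24 and 10 with mismatch, and 11 and 13 between match and mismatch. Over all genes 21.6% were higher and 17.6% lower with match, 18% and 11.9% with mismatch, and 9.45% and 13.6% between them. Called in either direction were 48.8%, 40.5% and 28.6% of the wider list, against 39.1%, 29.9% and 23% of all genes. With mifepristone 2 were higher and 0 lower (2.38% called, against 5.33% of all genes). With dexamethasone alone 0 and 0 were called (against 6.85% of all genes), where limma gave 3 higher and 8 lower at an unadjusted p under 0.05. The genes with the smallest adjusted p were paralogues or partners of members in several cases. CDK19, the paralogue of CDK8, measured 64.3, 59.0 and 72.0 with match, 74.0, 89.9 and 83.8 with mismatch and 240.4, 268 and 260.2 in dexamethasone arrays. Both compounds lowered it, by a log2 difference of -1.75 (SE 0.12, adjusted p = 4.7e-10) and -1.47 (SE 0.12, adjusted p = 1.9e-08), and a second probe set gave -1.47 and -1.31 while another, dimmer one rose by 0.93 with match. MED13L, the paralogue of MED13, measured 90.4, 92.5 and 80.7 with match, 123, 126 and 136 with mismatch and 288, 246 and 266 in dexamethasone arrays. It stood at -1.45 (SE 0.10, adjusted p = 6.6e-10) and -0.97 (SE 0.10, adjusted p = 4.9e-07), and match was below mismatch by -0.47 (adjusted p = 0.0022). Further MED13L probe sets were called with match at -0.72, -1.08 and -0.71, but not the dimmest (-0.58, adjusted p = 0.096). With mismatch no further one was called, at -0.39 to -0.11, so that fall rests on the chosen probe set.

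ELL3, another ELL factor, measured 148, 158 and 169 with match, 101, 114 and 91.9 with mismatch and 47.0, 52.6 and 38.1 in dexamethasone arrays. It rose by 1.50 (SE 0.14, adjusted p = 5.9e-08) and 0.94 (SE 0.14, adjusted p = 5.5e-05), seconded by its other probe set. SUPT3H, a SAGA subunit, measured 1.52, 0.80 and 1.29 with match, 2.77, 7.11 and 2.19 with mismatch and 40.1, 42.8 and 47.9 in dexamethasone arrays, so polyamide arrays were near 0 and the log2 values of -1.79 and -1.58 are set largely by the added 16. MED27, a Mediator subunit, fell with both, at -0.92 and -1.03, and in TFIID TAF11 rose with both, by 0.56 and 0.87.

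Further genes named by rank rose with match, among them LEO1 of the PAF complex at 0.72, the Mediator gene MED19 at 0.71 and NELFCD, a subunit of the pausing factor NELF, at 0.50. With mismatch the small TFIIA subunit GTF2A2 was at 0.47 and the PAF-associated factor RTF1 at 0.44. Match exceeded mismatch for NELFCD (0.40), MED17 (0.55), MED8 (0.61) and ELL3 (0.57). It was below mismatch for the small polymerase subunit POLR2L (-0.36), the elongin subunit ELOC (-0.38), RTF1 (-0.46) and the small TFIIH subunit GTF2H5 (-0.31). With mifepristone the tail phosphatase gene CTDSP2 rose by 0.36 (adjusted p = 0.0072) and RPRD1A, which binds the phosphorylated tail, by 0.34 (adjusted p = 0.04). CTDSP2 was not past the test without mifepristone replicate 1 (0.31), nor RPRD1A without any 1 dexamethasone array or mifepristone replicate 1 or 2 (0.29 to 0.36). The 4 that were higher with match than mismatch were not called on the signals as deposited, and the 4 that were lower were not called with hybridization-control scaling.

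The members that fell with the polyamides were often long genes, as was so over the genome. Across the 49 members Spearman's rho between gene span in RefSeq and the log2 difference was -0.46 with match and -0.39 with mismatch, against -0.31 and -0.29 across 16187 genes, and 0.05 with mifepristone and 0.23 with dexamethasone alone, against 0.04 and -0.02. These are descriptions across genes, which share arrays and are not independent. With match 1 of 12 members longer than 60 kb rose (TAF4) and 5 fell, against 9 higher and 2 lower of 15 members up to 20 kb and 12 and 0 of 22 between. Over all genes 8.59% of those longer than 60 kb were higher with match and 37.7% lower. Up to 20 kb these shares were 26.7% and 6.83%, and between 20 and 60 kb they were 26.7% and 13.6%.

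AFF1 spans 206 kb, CDK13 149 kb, CDK8 151 kb, MED13 123 kb and CDK12, called lower with mismatch only, 106 kb. Of the wider list CDK19 spans 206 kb, MNAT1 235 kb, MED13L 319 kb and SUPT3H 569 kb. By their chosen probe sets TAF1 (164 kb), CCNH (101 kb), AFF4 (88.2 kb), ELL (79.4 kb) and ELL2 (76.8 kb) were called with neither compound. Of 23 genes of the wider list longer than 60 kb, 9 fell and 1 rose with match. TAF4, at 91.1 kb, rose with match and fell with mismatch. TAF10 and SUPT4H1 fell with match though both are short, and ELL3, at 4.35 kb, rose. Whether gene length plays a part in these differences was not tested.

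**Figure D5:**
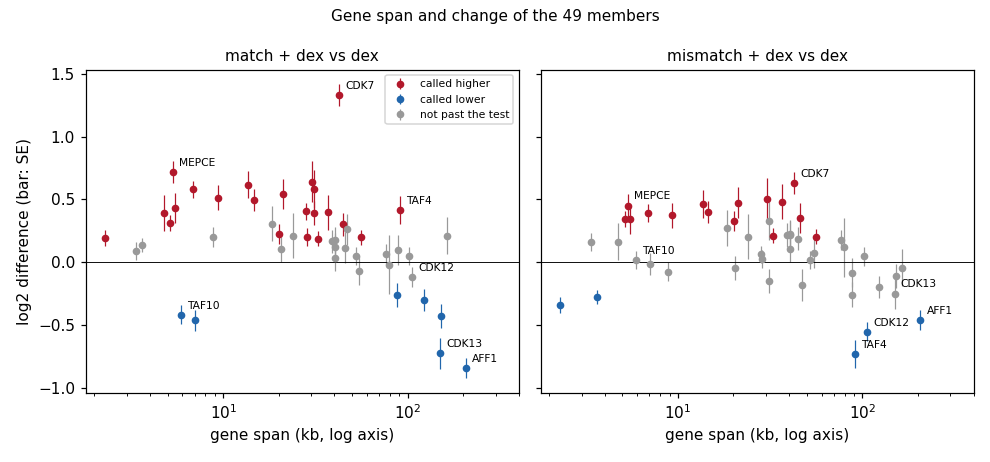
Log2 difference from dexamethasone arrays (points, bar for SE) of the 49 members against gene span in kb (log axis), for match (left) and mismatch (right). Members called lower lie mostly at the right, beyond 60 kb, with TAF10 and SUPT4H1 with match and TAF7 and HEXIM1 with mismatch at the left.

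A second probe set was available for part of these calls. Of the 33 members with 2 or more tested probe sets, 17 were called with match, of which 8 had a further probe set called in the same direction and 9 did not. POLR2C, POLR2D, TAF5, GTF2F1, GTF2H1, CDK13, SUPT4H1 and MED13 were the 8, and GTF2H1, CDK13 and MED13 also had a probe set called in the opposite direction. With mismatch 11 of the 33 were called, 6 of them seconded (POLR2C, POLR2D, TAF5, GTF2F1, CDK12 and HEXIM1), and between the polyamides 10 were called and 4 seconded (CDK12, CDK13, HEXIM1 and MED1). MED13, not called with mismatch by its chosen probe set, had further probe sets called there in opposite directions. CDK7, TAF4, TAF7, CCNK, MEPCE, POLR2H, SUPT5H and ERCC3 had 1 tested probe set each.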

How the data were processed

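A549 RNA was biotin-labelled for Affymetrix arrays, per the labels' protocols. The deposited intensity of each probe set on each array is linear, and the authors used MAS5 to compute it (per the submitters' processing notes; no label states its version or scaling target). The arrays were not scaled alike (trimmed means 86.8 to 146), so the signals of 54675 probe sets on 15 arrays were brought to 1 distribution by quantile normalization before log2(signal + 16). Leaving out 62 control probe sets and those not above the 40th percentile of their array on at least 3 arrays left 39744 (72.7%). The number of arrays limits the precision.

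limma 3.58.1 in R 4.3.3 fitted all 15 arrays with 1 mean per group, a variance trend and Benjamini-Hochberg adjustment over all tested probe sets (residual degrees of freedom 10, prior 9.36). The fit was tested on simulated data. The platform annotation gave 1 symbol to 41097 probe sets, several to 1801 and none to 11777. A gene's probe set was, among those with its symbol alone, one not ending in _x_at first, then the highest mean signal. Members, role lists, the wider machinery list, marker lists and tests were chosen with earlier results of these data known. Named with values in every array were, for match against dexamethasone, up to 10 called members with the largest rise and fall, up to 6 for mismatch against dexamethasone and for match against mismatch, and up to 4 for the others. POLR2A, TBP, CDK7, CDK9, HEXIM1, MED1, CCNT1, CCNT2, CDK12, CDK13, AFF1, AFF4, ELL and ELL2 were named in any case, with up to 4 genes of the wider list per comparison and direction by smallest adjusted p, and further members by role. Promoters (46 of 52 members matched) and gene spans came from RefSeq, GRCh38.p14. Alternatives changed scaling, added constant, filter, variance prior, arrays fitted, probe sets per gene, replicate block and single arrays.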

Additional observations from a re-analysis of the deposited data

How the results depend on the processing

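Array scaling moved the counts most. On the signals as deposited, 9 members were higher and 2 lower with match against dexamethasone, 1 was lower with mismatch, 2 were higher with match against mismatch, 20 higher and 0 lower with mifepristone, and 1 higher and 0 lower with dexamethasone. With hybridization-control scaling 2 were lower with match, 4 higher and 1 lower with mismatch, 6 higher and 0 lower between the polyamides, 32 higher and 0 lower with mifepristone, and 1 higher with dexamethasone. The shares of all probe sets with the polyamides and mifepristone under both scalings are given above. With dexamethasone they were 1.42% higher and 0.629% lower as deposited, and 1.14% and 0.793% with hybridization controls. The mean over a gene's probe sets left 16 higher and 2 lower with match, 10 and 4 with mismatch and 8 and 1 between the polyamides. It left 1 higher and 0 lower with mifepristone, a member other than HEXIM1, ELL2 and AFF1, none of which passed there. With dexamethasone it left 1 higher and 2 lower. Without a variance trend 15 were higher and 6 lower with match, 10 and 5 with mismatch and 7 and 5 between the polyamides. In that fit 1 was higher and 1 lower with mifepristone. With only the 6 arrays compared 17 were higher and 6 lower with match, 15 and 5 with mismatch and 10 and 4 between the polyamides. There 2 were higher and 2 lower with dexamethasone. Leaving out 1 array gave 17 to 19 higher and 6 to 7 lower with match, 10 to 15 and 5 to 6 with mismatch, 7 to 10 and 4 to 5 between them, 1 and 1 to 2 with mifepristone, and 2 and 1 with dexamethasone. AFF1 with mifepristone turned to 0.10 as deposited and 0.17 with hybridization controls, AFF4 to 0.46 with hybridization controls, and SUPT16H with mismatch to -0.15 over the mean of probe sets. The cause was not tested. The mean over probe sets, which takes in dim ones (under 20 in mean signal for AFF1, POLR2A and CCNT1) and ones called in the opposite direction (CDK13 and MED13), ended the match calls of AFF1 (-0.24), POLR2A (0.17), CDK13 (-0.23), TAF10 (-0.06), MED13 (-0.02) and CCNT1 (0.11). In the wider list the counts became, as deposited, 10 higher and 11 lower with match, 21 and 5 with mismatch, 0 and 9 between them and 33 and 0 with mifepristone, and with hybridization controls 27 and 6, 8 and 8, 6 and 0 and 50 and 0. Same-numbered arrays did not deviate together (correlations -0.08 to 0.12, against -0.13 to 0.13 for other numbers), and with a replicate block 23 members were higher and 6 lower with match, 15 and 5 with mismatch, 10 and 5 between them, 1 and 2 with mifepristone and 2 and 1 with dexamethasone.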
